A study of Rattus norvegicus with 16 samples.

Results

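The antioxidant enzymes and their regulator were followed through 8 genes in rat heart: Nfe2l2, Hmox1, Nqo1, Gclc, Gclm, Sod1, Sod2 and Cat. They were chosen by Ensembl identifier (Nfe2l2 ENSRNOG00000001548, Hmox1 ENSRNOG00000014117, Nqo1 ENSRNOG00000012772, Gclc ENSRNOG00000006302, Gclm ENSRNOG00000013409, Sod1 ENSRNOG00000002115, Sod2 ENSRNOG00000019048, Cat ENSRNOG00000008364), and the pairing of these identifiers with symbols came with the gene set rather than from the deposited files. All 8 were found among the 23918 genes of the count files, and all 8 were among the 14175 genes that passed the filter on low counts. The study sequenced polyadenylated heart RNA from adult male Wistar rats (240 to 260 g) in 3 groups, each library coming from its own animal. Control rats (dose 0 mg/kg, n = 4) are labelled as given no agent, and no vehicle injection is named. D55 rats (n = 6) and D100 rats (n = 6) were given 1 dose of streptozotocin through the tail vein under halothane, 55 mg/kg and 100 mg/kg. Streptozotocin kills the pancreatic cells that make insulin, so the animals are a model of insulin lack. In the treated rats a blood glucose over 13 mmol/L was checked after 24 hours, the animals were kept for 4 days, and the hearts were drained of blood before RNA was taken. By its title, the study relates cardiac gene expression to how severe the diabetes is.

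Nfe2l2 encodes Nrf2, a transcription factor that is marked for degradation by Keap1 in unstressed cells and accumulates when oxidants or electrophiles disable Keap1. Nrf2 then pairs with a small Maf protein on antioxidant response elements and raises the transcription of genes such as Hmox1, Nqo1, Gclc and Gclm. Sod1, Sod2 and Cat form a chain: superoxide dismutases turn superoxide into hydrogen peroxide, and catalase turns hydrogen peroxide into water and oxygen. Nrf2 activity is set largely by protein stability, so a transcript level of Nfe2l2 does not report it.

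The promoter windows of the set were read from RefSeq (build GRCr8, 250 bases before to 50 after each gene's start), whereas the counts were made on Rnor_6.0. Of the 8 genes 7 had a window, all but Hmox1. The core of the antioxidant response element, TGACNNNGC, was searched on both strands. It was present in 3 of the 7 windows, those of Gclm, Nfe2l2 and Sod2, and in 12.06% of all 33469 windows of this length. A match is a run of letters and not evidence of binding. The window of Cat is shown because the clearest differences below were those of Cat, and the other 3 because they hold the motif, which is in capitals.
Cat, chr3:110329477-110329776, minus strand: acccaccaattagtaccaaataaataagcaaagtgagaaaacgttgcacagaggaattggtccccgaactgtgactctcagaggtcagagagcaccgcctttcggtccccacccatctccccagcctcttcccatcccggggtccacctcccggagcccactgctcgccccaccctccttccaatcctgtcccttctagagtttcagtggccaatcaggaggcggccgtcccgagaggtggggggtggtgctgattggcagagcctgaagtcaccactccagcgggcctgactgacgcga
Gclm, chr2:213031885-213032184, plus strand: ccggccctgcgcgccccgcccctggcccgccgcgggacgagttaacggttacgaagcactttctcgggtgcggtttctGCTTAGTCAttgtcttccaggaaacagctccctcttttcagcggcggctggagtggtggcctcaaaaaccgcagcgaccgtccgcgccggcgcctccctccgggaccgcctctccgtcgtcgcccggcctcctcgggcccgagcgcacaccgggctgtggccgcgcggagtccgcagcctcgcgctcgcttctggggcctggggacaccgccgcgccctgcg
Nfe2l2, chr3:81028950-81029249, minus strand: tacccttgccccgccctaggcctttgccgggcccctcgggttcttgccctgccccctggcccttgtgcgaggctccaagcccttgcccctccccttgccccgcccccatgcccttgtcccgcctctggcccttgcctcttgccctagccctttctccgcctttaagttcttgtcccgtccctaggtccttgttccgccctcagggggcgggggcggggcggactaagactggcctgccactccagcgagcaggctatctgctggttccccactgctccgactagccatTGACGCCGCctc
Sod2, chr1:50050119-50050418, minus strand: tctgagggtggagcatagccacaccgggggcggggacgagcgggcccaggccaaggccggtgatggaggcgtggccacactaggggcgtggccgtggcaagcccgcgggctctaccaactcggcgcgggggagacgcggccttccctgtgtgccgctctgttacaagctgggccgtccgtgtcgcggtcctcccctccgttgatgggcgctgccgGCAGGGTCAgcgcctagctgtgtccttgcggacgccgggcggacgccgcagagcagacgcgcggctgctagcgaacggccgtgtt
In Gclm the motif began 172 bases before the start and lay on the strand opposite to the gene, in Sod2 it began 35 bases before the start, also on the opposite strand, and in Nfe2l2 it began at base 39 of the transcript. The window of Cat, with a GC content of 59.33%, held no match, nor did those of Nqo1, Gclc and Sod1. Sequence outside the windows was not searched, so elements further from the start would be missed.

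Levels are given as CPM, a gene's count relative to its library's total, with totals scaled by the TMM method, which takes most genes as equal between libraries. Totals ranged from 26.2 to 48.3 M estimated counts in control, 18.5 to 48.4 M in D55 and 4.69 to 25.6 M in D100, where replicate F was the shallowest. The 10 most abundant genes, none of them in the antioxidant set, took 43.3 to 59.4% of the counts in control, 30.1 to 54.7% in D55 and 53.4 to 69.0% in D100. The lowest shares, 30.1% and 30.4%, were those of D55 replicates B and E, and results that rest on them are given with and without them. Differences were tested with edgeR's quasi-likelihood test over all 16 libraries, with p-values adjusted by Benjamini-Hochberg over the 14175 genes and a threshold of 0.05. Fold changes are log2 values with their standard error (SE). In whole tissue, fewer cells of a type and less RNA per cell cannot be told apart. Markers of cardiomyocytes or of other heart cells were not analysed here, because the identifiers of other genes were not paired with names.

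**Figure D1:**
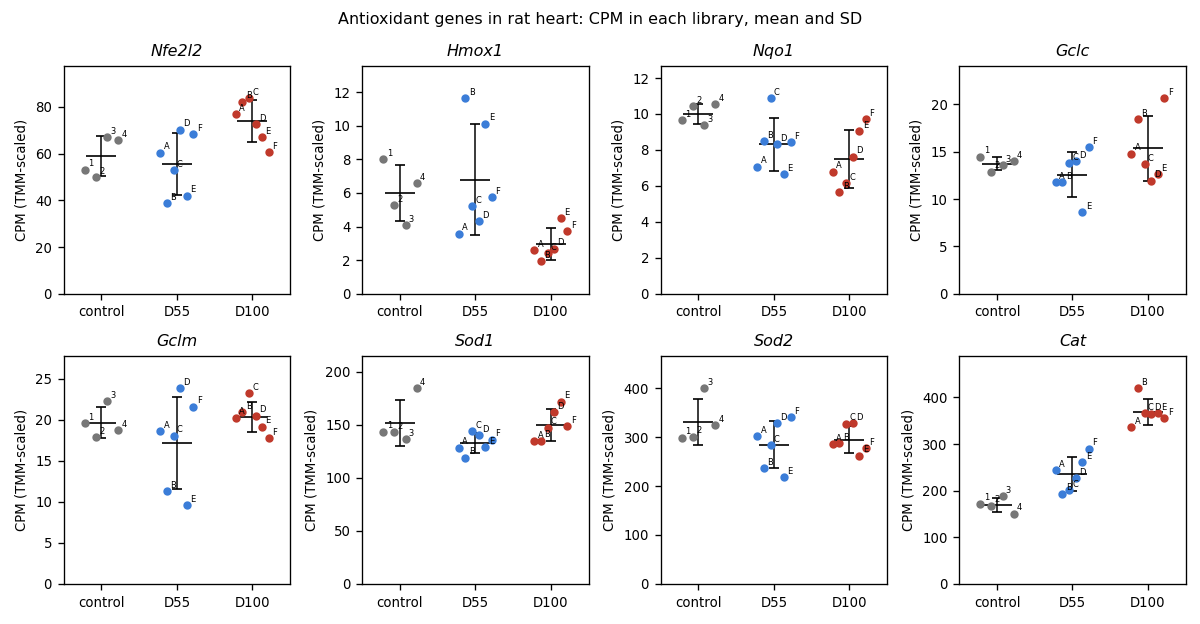
CPM (TMM-scaled, vertical axes from 0) of the 8 genes in each library of control (n = 4), D55 (n = 6) and D100 (n = 6). Points are libraries with their replicate label, and bars are the mean and SD. With this scaling the 3 groups of Cat do not overlap, whereas the D55 points of Hmox1, Gclm and Nfe2l2 spread widely, with replicates B and E at one end.

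Catalase transcript, the hydrogen peroxide-degrading enzyme of peroxisomes, was higher in D100 hearts than in any other group after TMM scaling. Cat stood at 172, 168, 188 and 151 CPM in control libraries 1 to 4. In D55 it ranged from 194 to 290 CPM with a median of 235. In D100 it ranged from 337 to 419 CPM with a median of 366. Every D55 library was thus above every control library, and every D100 library above every D55 library.

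Against control, Cat averaged 368 ± 27.5 CPM in D100 (SD, n = 6) and 170 ± 15.4 CPM in control (SD, n = 4). The log2 fold change was 1.12 (SE 0.14, edgeR adjusted p = 0.00038), a 2.17-fold rise that ranked 11th of the 14175 genes by p. Of all genes 4.38% passed this test in either direction and 1.92% were higher in D100. D100 lay above control without overlap for 3.15% of all genes. Cat passed in all 28 alternative settings, with log2 fold changes of 0.67 to 1.17 and adjusted p of 3.04e-17 to 0.0356. The lowest value came without scaling factors, where the median log2 change of all genes was -0.48. Cat lay 1.149 above that median, and 1.146 above the median with TMM.

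At the lower dose Cat averaged 236 ± 36.5 CPM in D55 (SD, n = 6) and 170 ± 15.4 CPM in control (SD, n = 4). The log2 fold change of 0.48 (SE 0.13) did not pass in edgeR after adjustment (adjusted p = 0.403, unadjusted p = 0.00236). Only 9 of the 14175 genes, 0.0635%, passed in this comparison, and D55 lay above control without overlap for 0.868% of genes. Cat ranked 83rd by p. In the alternatives Cat passed with DESeq2 (0.49, adjusted p = 0.0179) and with limma-voom (0.58, adjusted p = 0.00267), run throughout with a quality weight for each library. It also passed in edgeR with a covariate for library composition, the percentage held by the 10 most abundant genes (0.52, adjusted p = 0.0391). The adjusted p over its 28 alternatives ranged from 0.00267 to 0.939.

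Between the doses Cat rose by a log2 fold change of 0.64 in D100 over D55 (SE 0.12, edgeR adjusted p = 0.00968), or 1.56-fold. In this comparison 35.6% of all genes passed and 13.7% were higher in D100, while 1.88% lay higher without overlap. Without D55 B and E the D55 mean of Cat was 240 ± 37.4 CPM (SD, n = 4), close to that of all 6 libraries. Cat then still passed, at 0.62 (edgeR adjusted p = 0.0306), in a fit that called 0.888% of all genes. The call was lost without scaling factors (0.02, adjusted p = 0.912), where the median of all genes was -0.65, so that Cat lay 0.68 above it. The call was also lost with the composition covariate (0.51, edgeR adjusted p = 0.0784) and with replicate letters as a block (0.65, edgeR adjusted p = 0.0530). Judged with a tolerance of 0.01, the estimate of Cat was whole in 1 of 16 libraries, and those of the other 7 genes were whole in all 16. Part of the reads of Cat were therefore divided with similar sequences, and its level is measured less surely than theirs.

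Neither superoxide dismutase passed in the main edgeR fit, with TMM scaling and no covariate, in any of the 3 comparisons. Sod1 encodes the copper and zinc enzyme of the cytosol and Sod2 the manganese enzyme of the mitochondrial matrix. Sod1 held 143, 143, 136 and 184 CPM in controls 1 to 4, 119 to 144 CPM in D55 (median 133) and 135 to 172 CPM in D100 (median 148). Sod2 held 299, 301, 399 and 325 CPM in controls 1 to 4, 219 to 341 CPM in D55 (median 292) and 262 to 328 CPM in D100 (median 286). The groups overlapped for both genes in all 3 comparisons.

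For D100 against control the log2 fold change of Sod1 was -0.02 (SE 0.12, 95% interval -0.27 to 0.24), and that of Sod2 was -0.17 (SE 0.15, 95% interval -0.48 to 0.14). For D55 against control Sod1 stood at -0.19 (SE 0.12) and Sod2 at -0.22 (SE 0.15), and for D100 against D55 at 0.17 (SE 0.11) and 0.05 (SE 0.13). The edgeR adjusted p of these 6 values ran from 0.199 to 0.941. Without D55 B and E, Sod1 stood at -0.14 and Sod2 at -0.08 in D55 against control. In D100 against D55 they then stood at 0.13 and -0.09, and none of these passed. For D100 against control the intervals leave out a change of 2-fold for either gene, but not shifts small enough to lie inside them. Sod2 passed as lower in D100 than in control without scaling factors (-0.60, edgeR adjusted p = 0.0155), where the median of all genes was -0.48, and with the composition covariate (-0.39, adjusted p = 0.00882). Its D100 to D55 value passed in edgeR at -0.54 without scaling factors (adjusted p = 0.00828), where the median of all genes was -0.65 and Sod2 lay 0.11 above it.

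**Figure D2:**
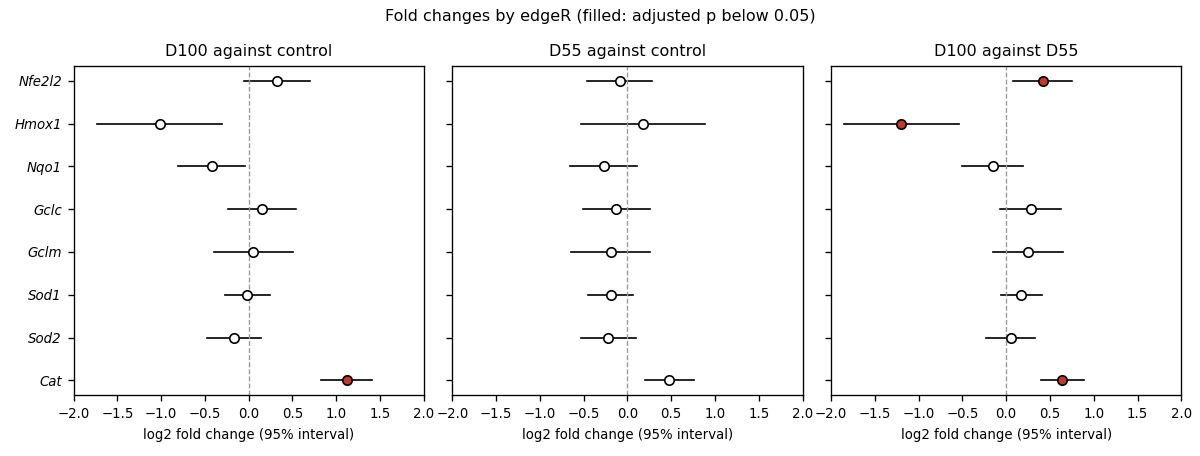
Log2 fold changes with 95% intervals for the 8 genes in D100 against control, D55 against control and D100 against D55 (positive is higher in the group named first). Filled points passed an edgeR adjusted p of 0.05: Cat in the first panel, none in the second, and Nfe2l2, Hmox1 and Cat in the third, where 35.6% of all genes passed.

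The ratio of 2 genes within a library does not depend on scaling between libraries, and it is given here as a description. The ratio of Cat to Sod1 counts was 1.20, 1.17, 1.38 and 0.819 in controls 1 to 4, 1.39 to 2.13 in D55 (median 1.76) and 2.13 to 3.10 in D100 (median 2.44). No control library reached the lowest D55 ratio, while the highest D55 ratio, 2.1317 in replicate F, and the lowest D100 ratio, 2.13214 in replicate E, were nearly equal. Without D55 B and E the D55 range was the same. The ratio of Sod2 to Sod1 had group means of 2.22 ± 0.50 in control (SD, n = 4), 2.14 ± 0.31 in D55 (SD, n = 6) and 1.98 ± 0.25 in D100 (SD, n = 6), with overlapping ranges. The counts of different genes also depend on transcript length, so only the differences between libraries, not the sizes of these ratios, can be read.

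**Figure D3:**
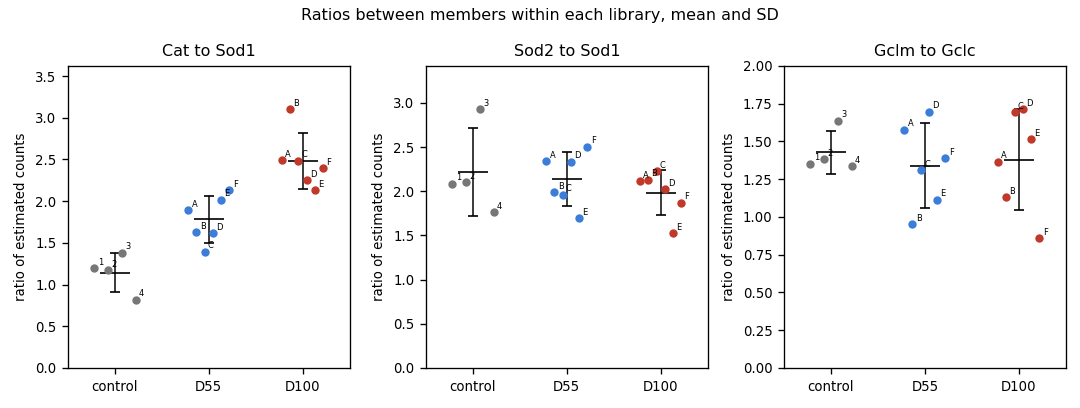
Ratios of estimated counts between 2 genes within each library (vertical axes from 0) for Cat to Sod1, Sod2 to Sod1 and Gclm to Gclc in control, D55 and D100. Points are libraries, bars the mean and SD. Cat to Sod1 ran from 0.819 to 1.38 in control, 1.39 to 2.13 in D55 and 2.13 to 3.10 in D100, whereas the ranges of the other ratios overlap.

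Haem oxygenase 1, which splits haem into biliverdin, iron and carbon monoxide, had its lowest levels in D100. Hmox1 held 8.0, 5.29, 4.09 and 6.56 CPM in controls 1 to 4, 3.57 to 11.6 CPM in D55 (median 5.48) and 1.93 to 4.49 CPM in D100 (median 2.64). It is a low transcript here, with 18 to 114 counts per D100 library. The highest D100 library, replicate E, was above control 3 and above 2 D55 libraries, so the groups overlapped.

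Hmox1 averaged 2.97 ± 0.94 CPM in D100 (SD, n = 6) and 5.98 ± 1.68 CPM in control (SD, n = 4). Its log2 change of -1.02 (SE 0.34) did not pass in edgeR (adjusted p = 0.0995, unadjusted p = 0.00818). It passed in 5 of 28 alternatives. These were without D55 B and E, which add to the common estimate of spread (-1.02, adjusted p = 0.023), the same with D100 F also left out (-1.07, adjusted p = 0.017), the compared groups alone (-1.02, adjusted p = 0.0493), without D100 replicate E (-1.19, adjusted p = 0.0486) and limma-voom (-1.39, adjusted p = 8.21e-05). In that order these 5 fits called 10.8%, 19.8%, 6.21%, 7.68% and 67.7% of all genes, beside 4.38% in the main fit. With the composition covariate the value of Hmox1 shrank to -0.42 (edgeR adjusted p = 0.23). For D55 against control the value was 0.18 (SE 0.34, edgeR adjusted p = 0.849), and it turned to -0.35 without D55 B and E (unadjusted p = 0.232 in edgeR).

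Between the doses Hmox1 fell by 1.20 on the log2 scale in D100 relative to D55 (SE 0.31, edgeR adjusted p = 0.0173), in a comparison where 21.8% of all genes passed as lower. It averaged 2.97 ± 0.94 CPM in D100 (SD, n = 6) and 6.77 ± 3.30 CPM in D55 (SD, n = 6). D55 replicates B and E had the highest Hmox1 of the series, 11.6 and 10.1 CPM. Without them the D55 mean was 4.72 ± 0.96 CPM (SD, n = 4), and the log2 fold change of -0.67 no longer passed (edgeR adjusted p = 0.170), nor did the value with D100 F also left out (-0.72, adjusted p = 0.0986). With the composition covariate it was -0.18 (adjusted p = 0.790), and with all libraries thinned to the shallowest depth the adjusted p was 0.0509. With replicate letters as a block Hmox1 stood at -1.10 (edgeR adjusted p = 0.0541).

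NAD(P)H quinone oxidoreductase 1, which reduces quinones without forming radicals, was measured at 9.66, 10.5, 9.38 and 10.5 CPM in controls 1 to 4. Nqo1 ranged from 6.67 to 10.9 CPM in D55 (median 8.39) and from 5.64 to 9.70 CPM in D100 (median 7.21). In D100, replicate F alone exceeded the lowest control. The log2 fold change was -0.42 for D100 against control (SE 0.18, edgeR adjusted p = 0.186, unadjusted p = 0.0334) and -0.27 for D55 against control (SE 0.18, adjusted p = 0.594). For D100 against D55 it was -0.15 (SE 0.16, adjusted p = 0.456). None of these passed in the main edgeR fit. The D100 value against control passed in 1 of 28 alternatives, limma-voom (-0.56, adjusted p = 0.000319), which called 67.7% of all genes. The D100 to D55 value passed in 1 of 29, edgeR without scaling factors (-0.73, adjusted p = 0.0375), where the median of all genes was -0.65.

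Gclc and Gclm encode the catalytic and the modifier subunit of glutamate-cysteine ligase, the rate-limiting enzyme of glutathione synthesis. Gclc held 14.5, 12.9, 13.6 and 13.99 CPM in controls 1 to 4, 8.61 to 15.5 CPM in D55 (median 12.8) and 11.9 to 20.6 CPM in D100 (median 14.3). Gclm held 19.6, 17.8, 22.2 and 18.7 CPM in controls 1 to 4, 9.60 to 23.8 CPM in D55 (median 18.3) and 17.8 to 23.2 CPM in D100 (median 20.4). Controls lay inside the D100 range of Gclc, and for Gclm the D100 and control ranges nearly coincided.

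For D100 against control the log2 fold changes were 0.15 for Gclc (SE 0.18, 95% interval -0.24 to 0.54) and 0.05 for Gclm (SE 0.21, 95% interval -0.40 to 0.50). Neither subunit passed in any comparison in edgeR, with adjusted p from 0.172 to 0.886, and no alternative called either. Gclm was lowest in D55 E and B, at 9.60 and 11.3 CPM, while the other D55 libraries held at least 18.1 CPM. The D55 mean of Gclm was accordingly 17.1 ± 5.63 CPM (SD, n = 6) with them and 20.5 ± 2.67 CPM (SD, n = 4) without them. The ratio of Gclm to Gclc counts was 1.35, 1.38, 1.64 and 1.34 in controls 1 to 4, 0.952 to 1.70 in D55 (median 1.35) and 0.860 to 1.71 in D100 (median 1.44). The lowest ratios were those of D100 F and D55 B, and the groups overlapped. In D100 F, the shallowest library, the ratio rests on 86 counts of Gclm and 100 of Gclc.

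The Nrf2 transcript itself was measured at 53.1, 49.99, 67.1 and 65.8 CPM in controls 1 to 4. Nfe2l2 ranged from 38.8 to 70.3 CPM in D55 (median 56.7) and from 60.7 to 83.6 CPM in D100 (median 74.8). D55 B and E were the lowest of the series, at 38.8 and 42.0 CPM, and D100 B and C the highest. The log2 fold change was 0.33 for D100 against control (SE 0.18, edgeR adjusted p = 0.277) and -0.09 for D55 against control (SE 0.18, adjusted p = 0.858). The D100 value against control passed in 1 of 28 alternatives, limma-voom (0.53, adjusted p = 0.000131), a fit that called 67.7% of all genes.

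For D100 against D55 Nfe2l2 passed narrowly in edgeR, higher by 0.41 on the log2 scale (SE 0.16, adjusted p = 0.04997). This call held in 9 of 29 alternatives. It was lost without D55 B and E (0.23, adjusted p = 0.294), and it was also lost on leaving out any 1 of controls 1 to 4, of D55 B, C and E or of D100 A to D (adjusted p from 0.0532 to 0.128). Without scaling factors its sign turned, to -0.18 (adjusted p = 0.145), and with the composition covariate it was -0.08 (adjusted p = 0.752).

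**Figure D4:**
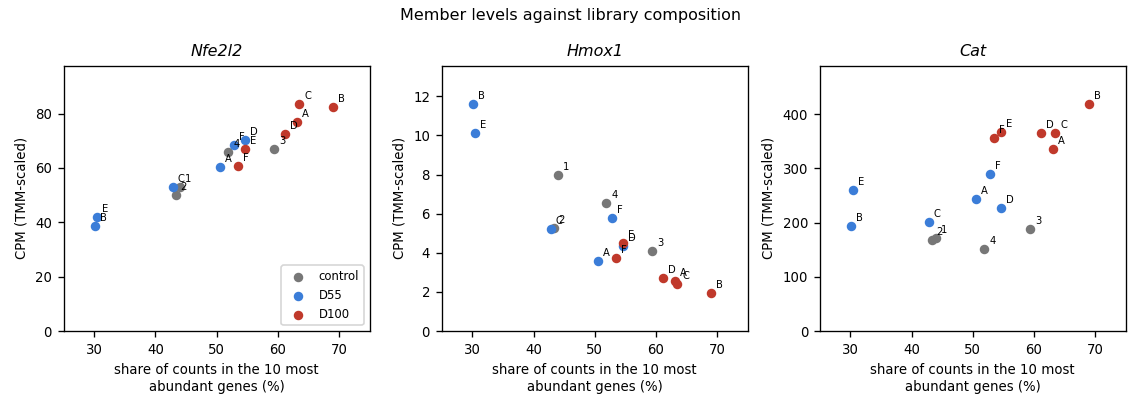
CPM (TMM-scaled, from 0) of Nfe2l2, Hmox1 and Cat against the percentage of counts held by the 10 most abundant genes in each of the 16 libraries, coloured by group. Nfe2l2 climbs and Hmox1 declines along the share across all groups (r = 0.98 and -0.92). For Cat, D100 E and F lie above D55 and control libraries of similar share. D100 A to D have higher shares than any D55 or control library, so they have no such counterpart.

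The levels of Nfe2l2 and Hmox1 moved with library composition across all groups. How many of all genes did so was not counted. Many genes ran along with Nfe2l2, since Gclm, at a rho of 0.85 with it, ranked 1796th of 14174. Over the 16 libraries, as a description of points that share their scaling, log2 CPM of Nfe2l2 had a Pearson r of 0.98 and a Spearman rho of 0.96 with the percentage held by those 10 genes. For Hmox1 r was -0.92 and rho -0.86. Without D55 B and E these r were 0.95 and -0.85. For Cat r was 0.58 and rho 0.63, and at shares of 52.8 to 54.7% D100 F and E had 356 and 367 CPM where D55 D and F had 227 and 290 CPM. Sod1 had r = 0.33, Sod2 0.62, Gclm 0.83, Gclc 0.57 and Nqo1 -0.38. Without D55 B and E these became -0.08, 0.18, 0.59, 0.24 and -0.81, in that order, and r of Cat became 0.72. The covariate fits given above put neither Hmox1 nor Nfe2l2 past the threshold between the doses, and called 0.289% of all genes there. The share itself differed by group, at 53.4 to 69.0% in D100 and 30.1 to 54.7% in D55. These fits therefore cannot separate composition from dose, and the part of composition in these differences was not tested.

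The genes of the set did not share a single pattern. Among pairs, the most alike over the 16 libraries were Nfe2l2 and Gclm (rho = 0.85), and Gclm and Sod2 (rho = 0.78). By rho with Gclm, Nfe2l2 ranked 66th of the 14174 other tested genes and Sod2 812th, while by rho with Nfe2l2, Gclm ranked 1796th. Hmox1 ran opposite to Nfe2l2 (rho = -0.80), and Cat ran opposite to both Hmox1 and Nqo1 (rho = -0.66 for each). Hmox1 and Nqo1 had rho = 0.51, or 0.79 over the 14 libraries without D55 B and E. The subunits Gclc and Gclm had rho = 0.38 over 16 libraries and 0.09 over those 14. These values are descriptions, since the libraries share their scaling and the composition axis above.

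Counted together, 1 of the 8 genes passed in D100 against control, where 4.38% of all genes did. In D55 against control none of the 8 passed, beside 0.0635% of all genes, and in D100 against D55 3 of the 8 passed. With no calls in D55 against control, 1 of 8 genes, Cat, had an unadjusted p under 0.05 in edgeR, against 8.97% of all genes. DESeq2 and limma-voom each called 1 there, Cat in both, while they called 0.621% and 3.68% of all genes. The 3 of 8 between the doses stand against 35.6% of all genes, so this count does not set the group apart. The median log2 fold change of the 8 genes was 0.02 in D100 against control, -0.16 in D55 against control and 0.21 in D100 against D55, beside -0.03, 0.03 and -0.03 over all tested genes. The medians that involve D55 include replicates B and E, and medians of the 8 genes without them were not computed. Without B and E, Nfe2l2, Gclc and Gclm turned positive and Hmox1 negative in D55 against control. In D100 against D55, Gclm and Sod2 turned negative. Both D100 and D55 were set against the same 4 controls, and the comparisons are therefore not independent.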

How the data were processed

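Stranded libraries of polyadenylated RNA were made from 16 hearts (400 ng RNA each), per the labels. The authors deposited 1 file of estimated counts by gene for every library. The submitters' processing notes name kallisto 0.43.1, which splits reads shared by similar transcripts, and Rnor_6.0. For annotation release and strand setting nothing is given in the sources used here. Estimates were rounded to whole numbers and analysed in R 4.3.3 with edgeR 4.0.16 (filterByExpr, TMM, glmQLFit, glmQLFTest, 1 coefficient per group over all 16 libraries). Alternatives used DESeq2 1.42.0, limma 3.58.1 (voom with library quality weights), other scalings and filters, thinning, a composition covariate, a replicate block and omission of libraries. The labels name no batch. All 8 genes are named in the text. The genes, tests and alternatives were chosen with earlier results on these data known, and omitting D100 F together with D55 B and E was added after seeing the values.

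The deposited files give Ensembl identifiers alone, and the reference gene table pairs none of them with symbols. The planned lists of other antioxidant genes, cell type markers and genes of similar pattern were therefore not analysed here. Promoters were matched by symbol. Total counts ranged from 4.69 to 48.4 M, so 3 counts correspond to 0.0413 to 0.619 CPM, covering counting error only. No pair of libraries within a group agreed within sampling noise. On simulated counts with 200 changed genes the D100 against control test recovered 29.9% of genes changed 2-fold and 77.8% of those changed 4-fold, and made 1 false call among 13938 genes. It recovered 2.99% of those changed 1.5-fold. At 2-fold the D55 against control test recovered 11.1% and the D100 against D55 test 20.6%. At 1.41-fold each of these tests recovered 1.49%. The simulated noise was drawn separately for each gene. It held no shared composition axis and no deviating libraries such as D55 B and E, so these rates need not hold for the real counts. Same-lettered D55 and D100 libraries are not stated to be paired.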

Additional observations from a re-analysis of the deposited data

Results flagged for a closer look

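Of 33 sets of values checked (8 genes and 3 ratios in 3 groups), 4 had a library whose gap to its nearest neighbour was large for the range of its group, where chance gives about 1 in 20. Sod1 in control 4 stood at 184 CPM, with the next control at 143 CPM. Cat in D100 B stood at 419 CPM, with the next D100 library at 367 CPM. The ratio of Cat to Sod1 was likewise highest in D100 B, 3.10 against 2.49 in the next library. The ratio of Gclm to Gclc was 1.64 in control 3, against 1.38 in the next control. Without D100 B the log2 fold change of Cat in D100 over control was 1.10 (edgeR adjusted p = 0.00105), and without control 4 it was 1.06 (adjusted p = 0.00321).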

How the results depend on the processing

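Of 680 fold changes of the 8 genes recomputed under 29 settings, 595 kept their sign and side of the threshold. A further 26 lost their call and 13 gained one, with the sign kept. The other 46 changed sign, and calls lost or gained among them are not part of the 26 and 13. For D100 against control the number of the 8 genes called was 2 without scaling factors (8.27% of all genes), 2 in the compared groups alone (6.21%), 2 without D55 B and E (10.8%, or 19.8% with D100 F also left out and again 2), 2 with the composition covariate (9.93%), 4 in limma-voom (67.7%) and 1 to 2 on leaving out 1 library. For D55 against control it was 1 in DESeq2 (0.621%), limma-voom (3.68%) and the covariate fit (0.374%) and 0 on leaving out any 1 library. For D100 against D55 it was 1 after thinning (29.5%), 1 without D55 B and E (0.888%, or 2.48% with D100 F also left out and again 1), 0 with the covariate (0.289%) and 2 to 3 on leaving out 1 library. Without scaling factors the 3 called were Hmox1, Nqo1 and Sod2, all lower in D100 (49.5% of all genes called). Numbering D55 and D100 by letter as a replicate block gave 0 of the 8 genes and 0 of all genes (5916 at an unadjusted p under 0.05), with Cat at 0.65 (adjusted p = 0.053), Hmox1 at -1.10 (adjusted p = 0.0541) and Nfe2l2 at 0.44 (adjusted p = 0.0999). Same-letter deviations correlated over 0.1 in 3 of 6 letters and 2 of 6 matched best with their own letter, so no pairing was assumed.

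Over all genes, D100 against control gave 621 calls, and 1172 without scaling factors (90 higher, 1082 lower), 409 without a filter, 1438 in DESeq2, 9594 in limma-voom, 342 after thinning, 1493 without D55 B and E, 2731 with D100 F also left out and 1407 with the covariate. It gave 180, 205 and 213 without control 1, 2 or 4, 329, 298, 348 and 314 without D100 A to D, and 1086 without D100 E. D55 against control gave 9, and 5 without scaling factors, 88 in DESeq2, 522 in limma-voom, 1 in the compared groups alone, 14 without D55 B and E, 16 with D100 F also left out, 53 with the covariate, 0 without any 1 control or D55 F, 5 without D55 A, 4 without D55 E or D100 C and 15 without D55 B. D100 against D55 gave 5041, and 3018 in the compared groups alone, 123 without D55 B and E, 342 with D100 F also left out, 41 with the covariate, 1172 and 1403 without D55 B or E, and 1965, 1721, 2173 and 2723 without D100 A to D. Genes without overlap numbered 362 for D55 against control, and 216 without scaling factors, 554 without D55 B and E and 549 with D100 F also left out. For D100 against D55 they numbered 596, and 1020 without scaling factors and 1135 without D55 B, E and D100 F. Leaving out 1 library gave 1060 to 3094 for D100 against control, 348 to 626 for D55 against control and 586 to 1847 for D100 against D55, and calls between the doses of 1172 to 6745.

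The cause of the turned signs was not tested. For D100 against control without scaling factors they were Nfe2l2 -0.13, Gclc -0.29 and Gclm -0.40. With the covariate they were -0.011, -0.0087 and -0.34. Sod1 became 0.015 with DESeq2 scaling, its test or thinning and 0.0013 in limma-voom, where Sod2 was 0.0067, and Gclc was -0.11 after thinning. For D55 against control without scaling factors Nfe2l2 was 0.056 and Gclc 0.015. In limma-voom Nfe2l2 was 0.24, Hmox1 -0.44, Gclm 0.075 and Sod2 0.048. Without D55 B and E Nfe2l2 was 0.093, Hmox1 -0.35, Gclc 0.0037 and Gclm 0.065 (0.066 with D100 F left out), and with the covariate Nfe2l2 was 0.070 and Hmox1 -0.24. For D100 against D55 without scaling factors Nfe2l2 was -0.18, Gclc -0.31, Gclm -0.32, Sod1 -0.42 and Sod2 -0.54. With the covariate Nfe2l2 was -0.082, Gclm -0.30 and Sod2 -0.29. Sod2 was also -0.0047 with the stricter filter, -0.041 in limma-voom, -0.088 without D55 B and E (Gclm -0.012) and -0.071 with D100 F left out. Leaving out 1 library gave ranges of -0.065 to 0.090 for Sod1 in D100 against control, -0.043 to 0.35 for Hmox1 in D55 against control and -0.012 to 0.11 for Sod2 in D100 against D55.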
